A study of Arabidopsis thaliana with 15 samples.

Results

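The 10 genes described here encode Aux/IAA proteins, the repressors of the auxin response. They were taken by locus, as IAA1 (AT4G14560), IAA2 (AT3G23030), IAA3 (AT1G04240), IAA4 (AT5G43700), IAA5 (AT1G15580), IAA6 (AT1G52830), IAA14 (AT4G14550), IAA17 (AT1G04250), IAA19 (AT3G15540) and IAA29 (AT4G32280). They are 10 of the 33323 genes listed in each library, and all 10 passed the filter on low counts in every comparison. The rule is a list of loci that uses no measured value, although the list was drawn up with earlier results of these data known.

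Seedlings of Arabidopsis thaliana, accession Col-0 (wild type), were stratified for 4 days and then grown on plates for 4 days in darkness at 22 °C. The Dark group was harvested at that point. Seedlings of the L4h group then spent 4 h in white light (100 µmol photons on each square metre every second), and those of the D4h group a further 4 h of darkness. Total RNA of the aerial part was sequenced for Dark, L4h and D4h, and polysome-bound RNA, the mRNA carried by several ribosomes, for Dark and L4h only. This gave 5 groups of 3 libraries by the sample labels, while the series text speaks of 2 replicates. The labels do not say whether replicates were separate cultures, so p-values measure only the spread between these libraries.

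Aux/IAA proteins bind the auxin response factors (ARFs) through a shared C-terminal interaction domain and bring the TOPLESS corepressors to ARF target genes. Auxin acts as a glue between a short degron in the Aux/IAA protein and an F-box receptor of the TIR1/AFB family, so that the repressor is ubiquitinated and destroyed. Many Aux/IAA genes are themselves early targets of ARFs, which makes the family both a brake on the auxin response and a readout of it. In dark-grown seedlings auxin drives hypocotyl elongation and the differential growth of the apical hook.

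The degron is the part of the protein that the receptor reads, and the coding stretches around it are shown because some family members lack it. Capitals mark the 15 bases that encode its core, GWPPV, with 9 bases on either side in lower case, read 5′ to 3′ on the coding strand of the longest annotated coding sequence (RefSeq, TAIR10.1):
IAA1: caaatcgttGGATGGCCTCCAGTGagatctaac
IAA2: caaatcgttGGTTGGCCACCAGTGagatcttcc
IAA3: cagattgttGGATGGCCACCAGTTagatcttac
IAA4: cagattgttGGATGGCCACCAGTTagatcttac
IAA5: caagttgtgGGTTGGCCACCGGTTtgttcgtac
IAA6: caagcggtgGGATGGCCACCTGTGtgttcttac
IAA19: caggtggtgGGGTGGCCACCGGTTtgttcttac
IAA14: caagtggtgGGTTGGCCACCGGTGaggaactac
IAA17: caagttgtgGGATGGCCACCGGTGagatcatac
IAA29: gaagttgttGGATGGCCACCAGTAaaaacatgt
All 10 genes encoded this core. The stretches of IAA3 and IAA4 were identical base for base, and no other pair was. Of the 19 other Aux/IAA genes, IAA20, IAA30, IAA32, IAA33 and IAA34 encoded neither this core nor a near form of it. By coding sequence the 10 genes fell into pairs and small groups. IAA1 and IAA2 were 80.9% identical over the shorter sequence, IAA3 and IAA4 80.2%, IAA6 and IAA19 73.3%, and IAA14 and IAA17 67.0%. IAA5 was nearest to IAA6 at 65.4%, and IAA29 stood furthest off, at 52.9% to its nearest relative IAA1.

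The genes lie on 4 chromosomes (TAIR10.1, RefSeq annotation, protein-coding genes), and 4 of them form adjacent pairs. IAA1 (chr4:8360996-8362033, plus strand) and IAA14 (chr4:8347822-8350263, minus strand) lie 10.7 kb apart, and IAA3 (chr1:1128149-1129689, minus strand) and IAA17 (chr1:1136078-1138663, plus strand) 6.39 kb apart, with no protein-coding gene between the members of either pair. IAA2 (chr3:8180646-8182095, minus strand) has the related gene IAA7 as its neighbor, 12.5 kb away. The others are IAA4 (chr5:17550179-17551715, plus strand), IAA5 (chr1:5365512-5366497, minus strand), IAA6 (chr1:19672476-19673652, minus strand), IAA19 (chr3:5264001-5265695, plus strand) and IAA29 (chr4:15583332-15584903, plus strand). IAA3 overlaps AT1G04230 on the opposite strand by 640 bases and IAA5 overlaps AT1G15570 by 48 bases. The strand of the reads is not given, so reads in these overlaps cannot be told apart. Over the 15 libraries AT1G04230 stood between 5.40 and 9.02 RPKM (the authors' read number scaled to listed length and sequencing depth), and AT1G15570 between 1.52 and 9.27 RPKM.

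Between 60.8 and 101 M reads fell on listed genes in each library, and the lowest read number of any of the 10 genes in any library was 40, for IAA5. Replicate 1 stood apart from replicates 2 and 3 in every group (chi-square per degree of freedom of 343 to 985 in pairs with replicate 1). Its Dark, D4h and Dark polysome libraries also carried more mRNA of 3 light-harvesting antenna genes (LHCA1, LHCB2.1 and LHCB3), with 303, 1370 and 624 summed RPKM against 38.0 to 78.6 in replicates 2 and 3 of the same groups and 3027 to 9936 in the 6 L4h libraries. D4h replicates 2 and 3 were far closer to each other (5.95 per degree of freedom) than any other pair (51.6 or more). All 6 shoot marker genes were detected in every library, while 5 of 8 root marker genes stayed under 0.52 RPKM. Of the others PRP3 reached 3.00 RPKM, PHT1;1 ran from 1.18 to 24.2 RPKM, and CASP1, a gene of the root endodermis, from 105 to 482 RPKM. CASP1 made up most of the summed root markers. In total RNA this sum was 137 to 412 RPKM in Dark, 108 to 321 in L4h and 217 to 389 in D4h. On polysomes it was 373 to 485 RPKM in Dark against 253 to 297 in L4h. The summed shoot markers were 83.0 to 108 RPKM in Dark, 129 to 164 in L4h and 103 to 163 in D4h, and 81.8 to 99.9 in Dark against 118 to 123 in L4h on polysomes. The part of these differences in the levels below was not tested.

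In dark-grown seedlings the levels of the 10 mRNAs differed widely. Mean levels in total RNA of Dark ran in the order IAA17 (457 ± 207 RPKM, SD, n = 3), IAA2 (411 ± 56.5), IAA3 (251 ± 100), IAA4 (217 ± 34.3), IAA19 (216 ± 78.7), IAA6 (46.5 ± 21.4), IAA1 (25.7 ± 2.52), IAA29 (24.2 ± 6.81), IAA14 (23.0 ± 3.12) and IAA5 (6.60 ± 2.28). Between neighbors in this order, the libraries did not overlap where IAA2 lay above IAA3, IAA19 above IAA6, and IAA14 above IAA5. IAA17 and IAA2 overlapped, as did IAA3, IAA4 and IAA19 among themselves, and IAA6, IAA1, IAA29 and IAA14. After 4 h of light the order was IAA17 (266 ± 89.95), IAA2 (137 ± 54.1), IAA4 (90.5 ± 18.2), IAA3 (77.4 ± 6.69), IAA14 (21.9 ± 8.46), IAA19 (14.6 ± 2.52), IAA1 (7.70 ± 3.3), IAA29 (3.85 ± 1.49), IAA6 (1.47 ± 1.04) and IAA5 (0.903 ± 0.186). Here IAA3 lay above IAA14, IAA19 above IAA1 and IAA1 above IAA29 without overlap, and the other neighbors overlapped. IAA19 had moved from the level of IAA3 and IAA4 to that of IAA14, and IAA6 from that of IAA1 to that of IAA5.

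**Figure D1:**
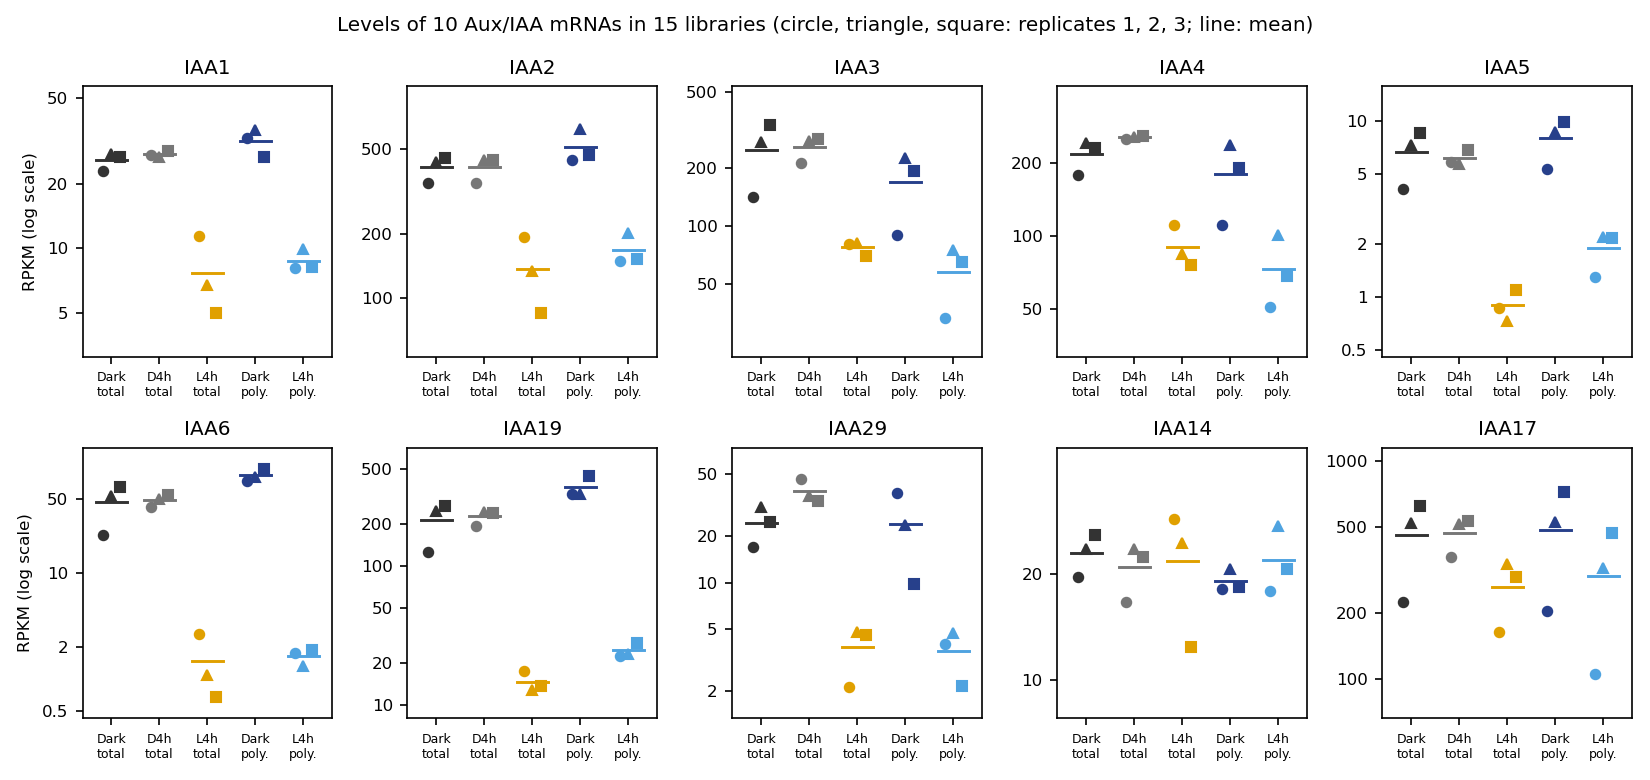
Level of each of the 10 mRNAs (RPKM, log scale with a range of its own in each panel) in the 15 libraries, by group; circles, triangles and squares are replicates 1, 2 and 3 and the line is the mean. For 8 genes every L4h library of total RNA lies below every Dark library, as holds for 22.4% of the 21735 genes tested, while for IAA14 and IAA17 the ranges overlap.

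The first comparison asks what 4 h of light did to these mRNAs in total RNA. Of the 10 genes 8 fell in L4h against Dark and 0 rose (adjusted p under 0.05 in edgeR's quasi-likelihood test with Benjamini-Hochberg correction, 3 libraries a group), where 10.0% of the 21735 genes tested fell and 12.3% rose. The median log2 change of the 10 was -1.67, against -0.02 for all genes. The falls were deepest in IAA6, IAA19, IAA5 and IAA29 and shallower in the IAA1 to IAA4 group, and neither IAA14 nor IAA17 passed the test. In bulk RNA, fewer cells of a type and less RNA per cell cannot be told apart.

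IAA19 (MSG2, known for its role in hypocotyl tropisms) stood at 125, 251 and 270 RPKM in the Dark libraries and at 17.4, 12.7 and 13.5 RPKM in L4h, in the order of replicates 1, 2 and 3. Every L4h library was thus several times below the lowest Dark library, replicate 1. The log2 change was -3.83 ± 0.32 (estimate ± SE), or 14.2-fold lower (edgeR adjusted p = 0.000495). IAA6 (SHY1, found through a mutation that suppresses the long hypocotyl of a phytochrome mutant) went from 22.6, 52.9 and 64.0 RPKM to 2.65, 1.08 and 0.677 RPKM. It showed the deepest fall of the 10, with all 3 L4h libraries under 3 RPKM. Its log2 change was -4.91 ± 0.60 (30.0-fold lower, edgeR adjusted p = 0.00188) and ranked 73 of 21735 from the lowest estimate.

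IAA5, the third gene of the IAA6 and IAA19 group, was the least abundant of the 10, with 4.07, 7.27 and 8.48 RPKM in Dark and 0.873, 0.734 and 1.10 RPKM in L4h. The 2 ranges were well apart (log2 change -2.82 ± 0.32, 7.05-fold lower, edgeR adjusted p = 0.00128). IAA29, a gene known to respond to shade and to be bound by PIF factors, had 17.1, 30.7 and 24.7 RPKM in Dark and 2.14, 4.81 and 4.61 RPKM in L4h. Its lowest Dark and lowest L4h library were both replicate 1. The log2 change was -2.62 ± 0.32 (6.13-fold lower, edgeR adjusted p = 0.00191).

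The IAA1 to IAA4 group fell by less. IAA2, the most abundant of these, had 347, 435 and 452 RPKM in Dark and 193, 133 and 84.7 RPKM in L4h, with replicate 1 lowest in Dark and highest in L4h. Its log2 change was -1.54 ± 0.31 (2.91-fold lower, edgeR adjusted p = 0.0119). IAA1 (AXR5), its closest relative, had 22.9, 27.6 and 26.7 RPKM in Dark and 11.4, 6.74 and 4.99 RPKM in L4h, with replicate 1 highest in light as in IAA2. The log2 change of IAA1 was -1.69 ± 0.29 (edgeR adjusted p = 0.00679). IAA3 (SHY2, a repressor with roles in light-grown seedling form and root growth) had 141, 274 and 337 RPKM in Dark and 80.8, 81.7 and 69.6 RPKM in L4h. Dark replicate 1 was far below the other Dark libraries and still above all of L4h, and the log2 change was -1.65 ± 0.30 (edgeR adjusted p = 0.00826). IAA4 had 178, 243 and 231 RPKM in Dark and 111, 84.4 and 76.2 RPKM in L4h, the shallowest of the 8 falls at -1.22 ± 0.20 (edgeR adjusted p = 0.00562).

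IAA14 and IAA17 form the remaining coding pair. IAA14 (SLR, the repressor of lateral root initiation) had 19.7, 23.6 and 25.8 RPKM in Dark and 28.7, 24.5 and 12.4 RPKM in L4h. The L4h libraries lay on both sides of the Dark range, and the log2 change was -0.03 with a 95% interval of -0.71 to 0.65 (edgeR adjusted p = 0.951). IAA17 (AXR3), the most abundant of the 10, had 226, 518 and 626 RPKM in Dark and 165, 338 and 294 RPKM in L4h. Each L4h library was below the Dark library of the same number, but the ranges overlapped because replicate 1 was low in both groups. The log2 change was -0.74 with an interval of -1.63 to 0.15 (edgeR adjusted p = 0.204). With the replicate number as a block it was -0.69 (edgeR adjusted p = 0.0442), and without the libraries numbered 1 it was -0.82 (edgeR adjusted p = 0.00424). In reads scaled to library size, IAA17 was lowest in replicate 1 in all 5 groups, and IAA3, IAA4 and IAA5 in 4 of the 5.

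**Figure D2:**
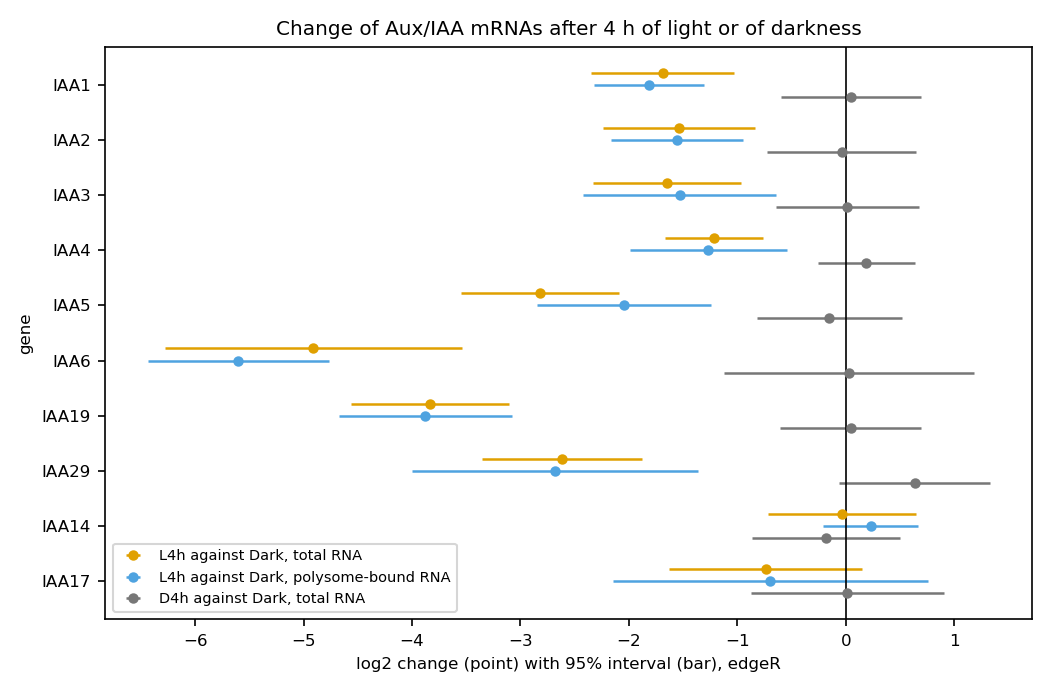
Log2 change of each gene (points) with its 95% interval (bars) for L4h against Dark in total RNA, L4h against Dark in polysome-bound RNA, and D4h against Dark in total RNA. The light estimates of 8 genes lie between -5.60 and -1.22 with intervals below 0, and all 10 intervals for D4h include 0.

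Summed over the 10 genes, the level went from 1104, 1864 and 2066 RPKM in Dark to 613, 688 and 562 RPKM in L4h, so that the mean sum was 2.70-fold lower. Because the genes fell unequally, the make-up of the sum differed too. IAA19 supplied 12.6 ± 1.13% of it in Dark and 2.37 ± 0.498% in L4h, and IAA6 2.66 ± 0.548% and 0.237 ± 0.170% (mean ± SD, n = 3). IAA17 supplied 26.2 ± 5.10% in Dark and 42.8 ± 13.8% in L4h. The rise of the IAA17 share rested on replicates 2 and 3 (49.2% and 52.3% in L4h), since replicate 1 stood at 27.0%, within the Dark range of 20.5% to 30.3%. IAA14 supplied 1.43 ± 0.302% and 3.49 ± 1.24%. Over all 29 Aux/IAA genes the mean sum was 3099 RPKM in Dark and 1598 RPKM in L4h, and the 10 genes made up 54.1% and 38.9% of it.

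**Figure D3:**
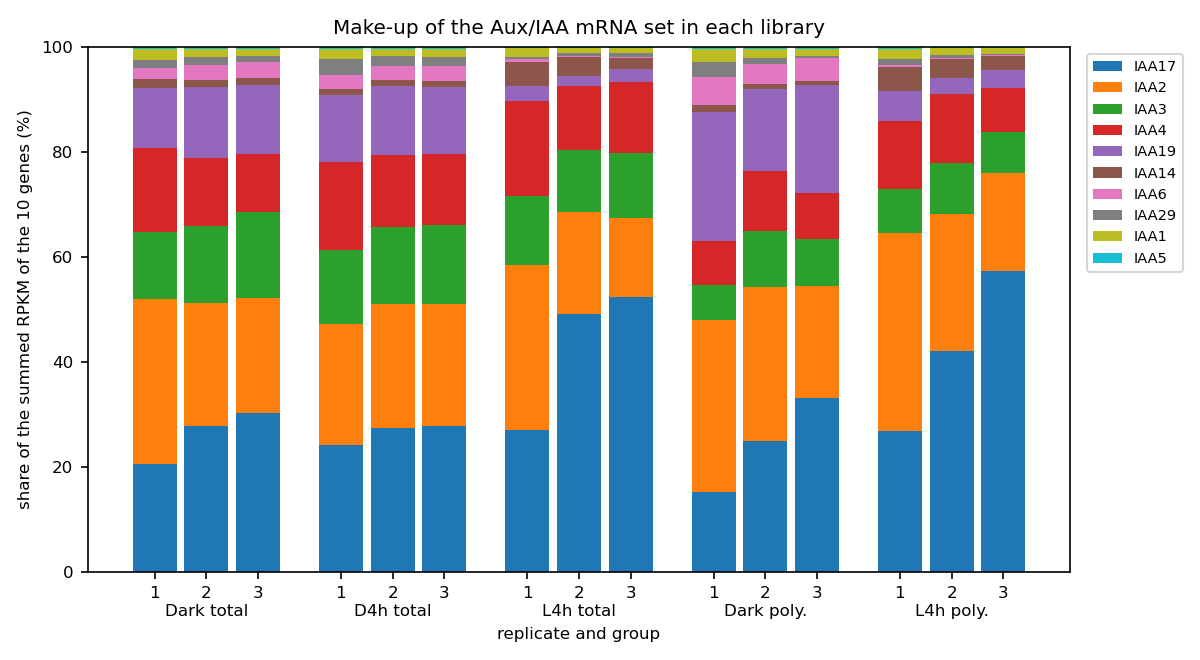
Share of each gene in the summed RPKM of the 10 genes (percent) for each library; bars are single libraries, ordered by group and replicate. IAA19 narrows from 12.6% in Dark to 2.37% in L4h on average, and IAA17 exceeds its Dark range in 2 of the 3 L4h libraries of each kind of RNA.

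The adjacent pairs gave a comparison within each library that does not depend on scaling between libraries. The RPKM ratio of IAA14 to IAA1, its neighbor on chromosome 4, was 0.860, 0.857 and 0.966 in the Dark libraries and 2.52, 3.64 and 2.49 in L4h. In polysome-bound RNA it was 0.553, 0.580 and 0.693 in Dark and 2.22, 2.77 and 2.52 in L4h, so the ranges were apart in both kinds of RNA. The ratio of IAA17 to IAA3 on chromosome 1 was 1.61, 1.89 and 1.86 in Dark and 2.05, 4.14 and 4.22 in L4h. This shift was smaller in replicate 1 than in the other replicates. On polysomes the ratio was 2.30, 2.33 and 3.73 in Dark and 3.19, 4.29 and 7.26 in L4h, and these ranges overlapped.

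Seedlings kept in darkness for the same 4 h show what passed with time alone. D4h did not differ detectably from Dark in any of the 10 genes: 0 of 10 passed in edgeR, DESeq2 or limma, and 0 had an unadjusted p under 0.05. Among all 21735 genes the share that passed was 0%, with 794 at an unadjusted p under 0.05 in edgeR and with 5 higher and 12 lower calls in DESeq2. Estimates for 9 genes lay between -0.18 and 0.19 log2 units. IAA29 had 46.5, 36.0 and 33.8 RPKM in D4h, all above its Dark range of 17.1 to 30.7 RPKM. IAA4, at 251, 256 and 260 RPKM, also lay above its Dark range of 178 to 243 RPKM, which made 2 of the 10 genes, where 7.48% of all genes had every D4h library above every Dark library. For IAA29 the log2 change was 0.63 ± 0.30 with an interval of -0.06 to 1.33 (edgeR adjusted p = 0.855, unadjusted 0.0683), higher under all 19 alternatives by 0.34 to 0.83 and called in none. IAA19 stayed at 193, 247 and 243 RPKM in D4h and IAA6 at 41.5, 49.4 and 54.4 RPKM. D4h replicate 1 was thus far above every L4h library in both genes. The source of the antenna mRNA in that library was not tested.

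Set against D4h, which matches L4h in age, the same 8 genes were lower in L4h and 0 were higher, where 7.30% of all genes were lower and 6.74% higher (edgeR adjusted p under 0.05). This comparison shares the L4h libraries with the one above. The median of the 10 was -1.70, against 0.00 for all genes. IAA29 gave -3.25 ± 0.33 here (9.52-fold lower, edgeR adjusted p = 0.000886), IAA19 -3.88 ± 0.32 and IAA6 -4.94 ± 0.60. IAA2 was the call nearest the threshold at -1.50 ± 0.31 (edgeR adjusted p = 0.0154). Its adjusted p was 0.0678 without L4h replicate 2, 0.0618 without D4h replicate 2, 0.0607 without D4h replicate 3 and 0.0605 with D4h replicates 2 and 3 taken as 1 library. IAA17 did not overlap between L4h and D4h (362, 516 and 532 RPKM) but did not pass (-0.75 ± 0.39, edgeR adjusted p = 0.240), and passed with the replicate block (-0.78, edgeR adjusted p = 0.0381). That block matches L4h and D4h libraries by number, while libraries of the same number did not deviate together in these groups (correlations of -0.27 to 0.30). The call with the block thus rests on a pairing that was not found here across all genes. IAA17 itself was lowest in replicate 1 in both groups. With no block and without the libraries numbered 1, IAA17 also passed against D4h (-0.70, edgeR adjusted p = 0.00788).

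The next comparison asks whether mRNA on polysomes, the fraction being translated, followed the same course. In polysome-bound RNA 8 of the 10 genes fell in L4h against Dark and 0 rose, where 4.94% of the 20975 genes tested fell and 5.36% rose (edgeR adjusted p under 0.05). The median of the 10 was -1.69, against -0.01 for all genes. IAA6 fell from 73.5, 81.0 and 95.3 RPKM to 1.75, 1.32 and 1.86 RPKM. These were tighter groups than in total RNA, and the log2 change of -5.60 ± 0.36 (48.5-fold lower, edgeR adjusted p = 0.00131) ranked 47 of 20975 from the lowest. IAA19 fell from 332, 330 and 448 RPKM to 22.4, 23.3 and 28.0 RPKM (-3.88 ± 0.34, 14.7-fold lower, edgeR adjusted p = 0.00216).

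IAA5 fell from 5.34, 8.61 and 9.80 RPKM on polysomes to 1.30, 2.19 and 2.17 RPKM (-2.04 ± 0.34, edgeR adjusted p = 0.0133). IAA29 varied widely, at 38.1, 23.6 and 9.78 RPKM in Dark and 4.02, 4.73 and 2.17 RPKM in L4h. Replicate 3 was lowest in both groups, and the log2 change was -2.68 ± 0.56 (edgeR adjusted p = 0.0284). IAA2 fell from 442, 618 and 468 RPKM to 149, 201 and 152 RPKM and IAA1 from 32.8, 35.7 and 26.5 RPKM to 8.08, 9.88 and 8.21 RPKM. Their log2 changes were -1.56 ± 0.26 and -1.82 ± 0.21 (edgeR adjusted p = 0.0129 and 0.00434). IAA3 (89.7, 226 and 194 RPKM in Dark and 33.2, 75.2 and 64.5 RPKM in L4h) and IAA4 (111, 239 and 192 RPKM, and 51.0, 101 and 68.8 RPKM) passed narrowly, with edgeR adjusted p of 0.0475 and 0.0444. IAA14 stayed at 18.2, 20.7 and 18.4 RPKM in Dark and 17.9, 27.4 and 20.7 RPKM in L4h (log2 change 0.23, interval -0.21 to 0.67).

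IAA17 on polysomes had 206, 526 and 722 RPKM in Dark and 106, 323 and 468 RPKM in L4h. Each L4h library was again below the Dark library of its number, and the spread between numbers was wider than that drop. The log2 change was -0.70 ± 0.62 (edgeR adjusted p = 0.554), and -0.72 with the replicate block (edgeR adjusted p = 0.00684). The count of 8 depended on single libraries: it was 3 without Dark polysome replicate 2 or L4h polysome replicate 2, 4 without L4h polysome replicate 3, 5 without L4h polysome replicate 1 and 6 without Dark polysome replicate 3. IAA1, IAA6 and IAA19 passed in all of these, and the estimates of the other 5 called genes stayed negative.

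A test of the difference between the 2 falls, in polysome-bound and in total RNA, found 0 of the 10 genes and 0% of all 21924 genes past the threshold (edgeR interaction term; 114 genes and 0 of the 10 at an unadjusted p under 0.05, with 2 higher and 1 lower call in DESeq2). The estimates ran from -0.64 ± 0.69 for IAA6 to 0.81 ± 0.47 for IAA5, and the interval for IAA19 was -0.92 to 0.93. Differences of about that size would not have been detectable here.

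Within one condition, the ratio of polysome-bound to total RNA describes how much of an mRNA was on polysomes relative to other mRNAs. In Dark, IAA19 alone was higher on polysomes (1.06 ± 0.31, 2.08-fold, edgeR adjusted p = 0.0328) and 0 of the 10 were lower, where 10.5% of genes were higher and 9.28% lower. In L4h, IAA19 (1.06 ± 0.31, edgeR adjusted p = 0.0318) and IAA5 (1.34 ± 0.34, 2.52-fold, edgeR adjusted p = 0.0194) were higher and 0 lower, where 11.6% of genes were higher and 9.05% lower. IAA6 had 73.5 to 95.3 RPKM on polysomes in Dark against 22.6 to 64.0 RPKM in total RNA and did not pass (1.12 ± 0.48, edgeR adjusted p = 0.128). At the other end IAA3 gave -0.32 ± 0.35 in Dark and -0.17 ± 0.35 in L4h. The median of the 10 was 0.44 in Dark and 0.45 in L4h, against 0.00 and 0.02 for all genes.

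Gene length moved with this ratio across the whole table. The 10 genes are short, with listed lengths of 0.628 kb (IAA5) to 1.482 kb (IAA14). The 8976 tested genes in that range of lengths had median ratios of 0.44 in Dark and 0.52 in L4h on the log2 scale, and 18.5% and 20.9% of them were called higher. Genes over 2 kb had medians of -0.52 and -0.57. The medians of the 10 genes were thus near those of this range taken as a whole. Within the range the Dark median fell with length, from 1.16 at 0.5 to 0.75 kb to 0.12 at 1.25 to 1.5 kb. IAA6 and IAA19 lay above the Dark median of their bin (0.74 at 0.75 to 1 kb). IAA17 lay at that of its bin (0.35 at 1 to 1.25 kb), and the others lay below theirs. The part of length in the IAA19 and IAA5 values was not tested. IAA19 in Dark was also not called without Dark total replicate 1 or 2 (edgeR adjusted p = 0.0945 and 0.0679) or Dark polysome replicate 1 or 3 (0.0661 and 0.109). In L4h, IAA19 was not called without L4h total replicate 2 or 3 (0.118 and 0.115) or L4h polysome replicate 1 or 3 (0.0960 and 0.113), and IAA5 without L4h total replicate 1 or 2 (0.0553 and 0.0812) or L4h polysome replicate 3 (0.0725).

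**Figure D4:**
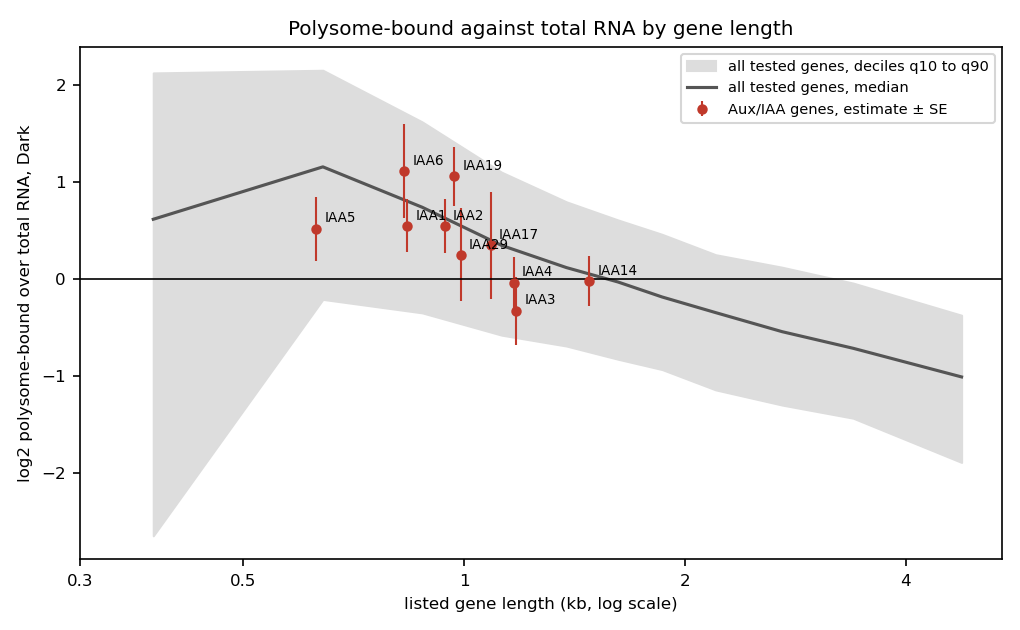
Log2 ratio of polysome-bound to total RNA in Dark against listed gene length (kb, log scale); the gray line and band are the median and the 10th to 90th percentile of all tested genes in bins of length, and red points are the 10 genes with their SE. All 10 points lie within the band, with IAA6 (1.12) and IAA19 (1.06) highest and IAA3 (-0.32) lowest.

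The genes that fell in light ran together across the libraries, whether or not they were close in coding sequence. Over the 15 libraries, which these values share, Pearson's r of log2 CPM (reads scaled to library size, prior count of 2) was 0.988 for IAA6 and IAA19, 0.984 for IAA1 and IAA2, 0.977 for IAA1 and IAA6, 0.970 for IAA5 and IAA19, 0.966 for IAA1 and IAA19 and 0.963 for IAA3 and IAA4. IAA1 is only 59.4% identical to IAA6 and 57.2% to IAA19 in coding sequence. These describe the same light difference several times over and carry no test. IAA29 was most like IAA6 (0.868) and IAA17 most like IAA3 (0.702), its neighbor on the chromosome. IAA14 and IAA17, though a coding pair, gave -0.05, and no r of IAA14 with the other genes was above 0.198. Reads from stretches that a pair shares could fall on either gene; 8 of the 10 genes held only whole read numbers. The exceptions were IAA3, with fractional reads in 9 libraries, and IAA14, in 11. Outside the family, the genes nearest to the mean profile of the 10 were AT2G17080 (r = 0.984), AT3G50800 (0.983), AT3G30580 (0.980), AT3G42800 (0.980) and AT5G67390 (0.979), of 21701 candidates. Their log2 changes in L4h against Dark were -4.93, -1.94, -5.53, -2.52 and -3.02.

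IAA6 and IAA19, the pair with the deepest falls, also shared sequence upstream. The 300 bases before the annotated gene start (TAIR10.1) were searched on both strands for CACGTG (the G-box) and CATGTG, which PIF factors bind, and for TGTCTC and TGTCGG, which ARFs bind. Without gaps, a stretch of 48 bases had 45 identical between these windows (IAA6 at chr1:19673785-19673832, minus strand; IAA19 at chr3:5263816-5263863, plus strand), starting 180 and 185 bases before the respective gene start. It is shown, with the searched motifs in capitals, because it holds a TGTCTC and a CATGTG with a single base between them in both genes:
IAA6 stretch: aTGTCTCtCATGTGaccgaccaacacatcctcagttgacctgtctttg
IAA19 stretch: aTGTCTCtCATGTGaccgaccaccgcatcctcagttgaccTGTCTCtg
The longest run without a mismatch in this pair was 23 bases, starting 181 and 186 bases before the gene starts, against at most 13 bases in any other pair of the 10 windows. The whole windows follow, so that the motifs can be seen in place (IAA19 at chr3:5263701-5264000, plus strand; IAA6 at chr1:19673653-19673952, minus strand, both read toward the gene, motifs in capitals):
IAA19 upstream window: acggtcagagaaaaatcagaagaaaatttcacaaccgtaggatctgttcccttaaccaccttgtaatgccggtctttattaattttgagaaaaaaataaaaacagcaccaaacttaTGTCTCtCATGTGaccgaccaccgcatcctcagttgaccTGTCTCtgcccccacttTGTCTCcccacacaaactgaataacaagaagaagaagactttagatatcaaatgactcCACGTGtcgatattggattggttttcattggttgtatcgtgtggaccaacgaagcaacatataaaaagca
IAA6 upstream window: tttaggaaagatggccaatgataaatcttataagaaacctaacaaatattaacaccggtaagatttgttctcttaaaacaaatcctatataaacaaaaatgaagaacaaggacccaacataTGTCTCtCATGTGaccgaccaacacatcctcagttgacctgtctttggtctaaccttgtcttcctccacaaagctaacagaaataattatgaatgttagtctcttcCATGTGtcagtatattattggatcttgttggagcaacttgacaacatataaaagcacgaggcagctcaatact
IAA19 held 3 TGTCTC, 1 CATGTG and the only CACGTG among the 10 windows, 70 bases before the start. IAA6 held 1 TGTCTC and 2 CATGTG.

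Across the 10 windows TGTCTC occurred in IAA1, IAA3, IAA5, IAA6 and IAA19, where 13% of all 27443 gene windows held it. CATGTG occurred in IAA3, IAA4, IAA6 and IAA19 (13.1% of all windows), CACGTG in IAA19 (7.09%) and TGTCGG in IAA1 and IAA5 (4.91%). The 2 CATGTG of IAA3 overlap, on opposite strands. None of the 4 motifs was found in the windows of IAA14 and IAA17, nor in those of IAA2 and IAA29, which fell. IAA14 and IAA17 were not called in light in the main test, and IAA17 was called with the replicate block. Within 1000 bases CATGTG was present in 9 of the 10 (all but IAA29) and in 37.7% of all windows, TGTCTC in 7 (39.6%), CACGTG in IAA2, IAA5 and IAA19 (14.8%) and TGTCGG in IAA1, IAA5 and IAA29 (14.6%). A match is only a match of letters, and says nothing on binding in these seedlings.

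Of the 19 other Aux/IAA genes 17 were tested, and 5 fell and 1 rose in L4h against Dark in total RNA, where 10.0% of all genes fell and 12.3% rose. Their median log2 change was -0.50. IAA28 (a repressor known from root growth) was the riser, from 11.2, 15.1 and 12.5 RPKM to 36.7, 42.1 and 34.8 RPKM (1.59 ± 0.17, edgeR adjusted p = 0.000931). IAA13 fell from 46.9, 46.3 and 45.5 RPKM to 20.4, 24.5 and 21.6 RPKM (-1.03 ± 0.20, edgeR adjusted p = 0.0116), with tight groups in both conditions. The others that fell, named after their values were seen, were IAA20 (-2.34), IAA26 (-0.91), IAA32 (-0.85) and IAA16 (-0.77). IAA7 (AXR2), the neighbor of IAA2, had 389, 545 and 555 RPKM in Dark and 277, 355 and 282 RPKM in L4h, all of L4h below Dark, and did not pass (-0.67 ± 0.23, edgeR adjusted p = 0.0654). On polysomes 1 of the 17 fell and 2 rose, where 4.94% of all genes fell and 5.36% rose, with a median of -0.56.

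**Figure D5:**
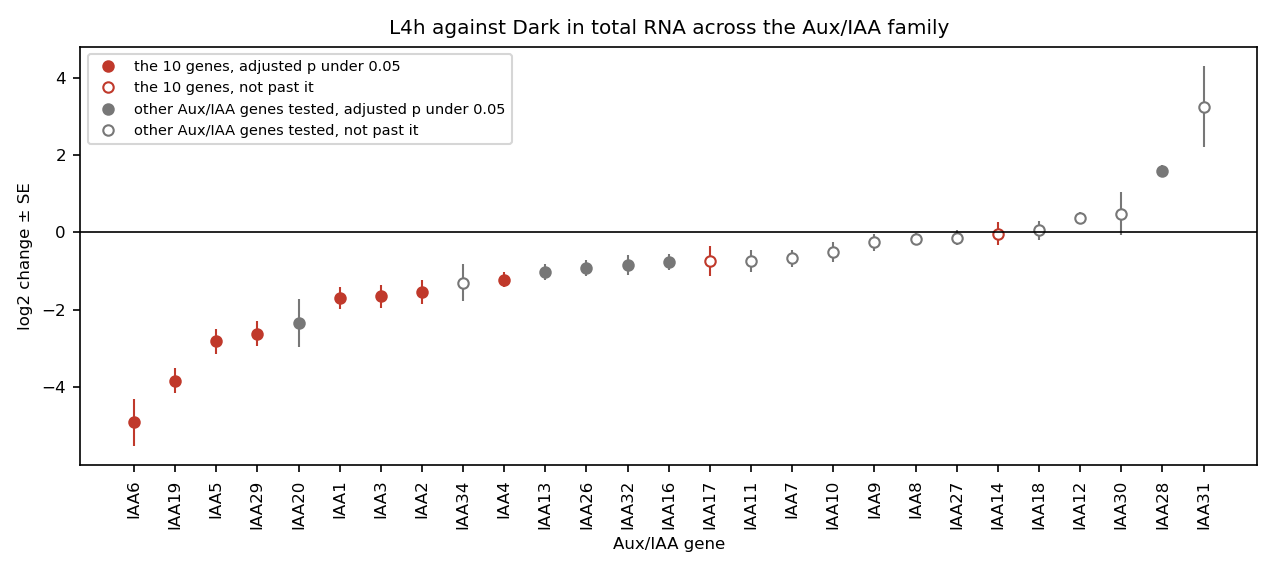
Log2 change ± SE in total RNA of L4h against Dark for the 27 tested Aux/IAA genes in order; red points are the 10 genes, gray points the other 17, and filled points passed an adjusted p of 0.05. The 4 lowest values belong to IAA6, IAA19, IAA5 and IAA29, and IAA28 (1.59) is the only gene that passed above 0.

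The mRNAs of the proteins that Aux/IAA repressors work with were counted in L4h against Dark in total RNA, where 10.0% of all genes fell and 12.3% rose. Of 6 TIR1/AFB receptor genes 1 rose and 1 fell in total RNA (median -0.24). AFB1 had 45.8, 54.3 and 53.9 RPKM in Dark and 21.3, 18.3 and 17.7 RPKM in L4h (-1.38 ± 0.14, edgeR adjusted p = 0.000931), AFB5 rose by 0.57 ± 0.12 (adjusted p = 0.0150), and TIR1 gave -0.06 ± 0.21. Of 5 activating ARF genes 1 rose and 1 fell (median -0.02): ARF8 rose by 1.18 ± 0.21 (edgeR adjusted p = 0.00770), ARF19 changed by -0.76 ± 0.17 (adjusted p = 0.0163), and ARF7 gave 0.14 ± 0.23. Of 9 other ARF genes 2 rose and 2 fell (median -0.55), among them ARF3 (1.02 ± 0.15) and ARF18 (-1.42 ± 0.18), while ARF1 gave -0.11 ± 0.13 and ARF2 -0.57 ± 0.24 without passing. Of 5 TOPLESS family genes 1 rose, TPR3 (1.04 ± 0.20, edgeR adjusted p = 0.00979), and 0 fell (median 0.04), with TPL at -0.24 ± 0.17 and TPR1 at 0.04 ± 0.14. On polysomes 1 receptor (AFB1), 1 other ARF gene (ARF18) and no activating ARF or TOPLESS gene fell, and ARF3 rose, where 4.94% of all genes fell and 5.36% rose.

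The GH3 genes, early auxin targets whose enzymes join auxin to amino acids, are another feedback arm of the pathway. Of 7 listed 6 were tested, and 4 fell and 0 rose in total RNA of L4h, where 10.0% of all genes fell and 12.3% rose, with a median of -2.60. GH3.3 went from 33.5, 29.0 and 25.1 RPKM to 0.841, 2.04 and 3.4 RPKM (-3.78 ± 0.54, edgeR adjusted p = 0.00343), a drop far outside the spread of either group. GH3.2 gave -3.16 ± 0.60 (adjusted p = 0.0103), GH3.1 -2.92 ± 0.37 (0.00209) and GH3.5 -2.29 ± 0.57 (0.0255) in the same edgeR test. Against D4h 3 of the 6 were lower in L4h and 0 higher, where 7.30% of all genes were lower and 6.74% higher. GH3.5 did not pass there (-1.65 ± 0.56, edgeR adjusted p = 0.0877). It stood at 92.0, 217 and 218 RPKM in D4h and at 90.3, 42.0 and 25.4 RPKM in L4h. In polysome-bound RNA 3 fell (GH3.3, GH3.5 and GH3.2) and 1 rose, GH3.6 (1.5 ± 0.26, edgeR adjusted p = 0.0162), which was named after its value was seen. Of all genes 4.94% fell and 5.36% rose there.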

How the data were processed

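RNA-seq tables of 15 libraries were used. The authors deposited, for each gene, its length in kilobases, estimated counts (expected counts of a counting tool that is not named), not normalized, and RPKM values scaled to length and depth, per the file headers. Of the count values 84.4% to 87.2% were whole (tolerance 1e-06). The build is TAIR10 per the submitters' processing notes; aligner, counting tool, library kit and strand are not given in the sources used here. RPKM served for levels, and counts for tests.

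Counts were rounded and tested in R 4.3.3 by edgeR 4.0.16. Genes were kept by filterByExpr (minimum count 10), scaled by TMM, tested by quasi-likelihood F and adjusted by Benjamini-Hochberg over all genes tested. The 9 total RNA libraries were fitted together, as were the 6 polysome libraries, and all 12 Dark and L4h libraries served to compare the kinds of RNA and to test their interaction with light. The SE is the log2 change over the root of F. Precision is set by 60.8 to 101 M reads per library and by the spread of 3 libraries; no counting interval is given. Each fit was checked on simulated data, for L4h against Dark only and without a shift of replicate 1. The simulated libraries were drawn independently, so libraries of the same number did not deviate together. The outcome is not given here, and no call rests on it. The check did not cover polysome-bound against total RNA or the interaction.

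The genes, the lists and the alternatives (DESeq2 1.42.0, RLE scaling, other filters, limma 3.58.1 on log2(RPKM + 1) and log2(RPKM + 0.1), a replicate block, 1 fit of all libraries, libraries left out) were chosen with earlier results of these data known; the block shared by both kinds of RNA and the antenna genes were added after the files were seen. Of each other list the first 2 tested members and up to 2 further members with the lowest adjusted p are named, and the 5 genes most like the mean profile. The main tests used no pairing, and the replicate number entered the model only in the alternatives with a block. Pairing was judged by whether libraries of the same number deviated together from their group means (correlation above 0.1 for each number). This held for Dark with L4h in total RNA (0.387 to 0.596) and on polysomes (0.562 to 0.695). It also held for the kinds of RNA within Dark (0.279 to 0.473) and within L4h (0.124 to 0.384), but for no pair with D4h. The block in total RNA covered D4h all the same. Sequences and positions come from the RefSeq annotation of TAIR10.1 (Python 3 and Biopython), and coding sequences were aligned globally with free end gaps.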

Additional observations from a re-analysis of the deposited data

How the results depend on the processing

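The 8 falls in total RNA of L4h against Dark were called under every alternative run, and the count was 8 or 9, with IAA17 added by the replicate block and by leaving out all libraries numbered 1. Against D4h it was 7 to 9. No estimate that had been called changed sign. With each library left out in turn, the counts ran from 8 to 8 (L4h against Dark, total), 7 to 8 (against D4h), 0 to 0 (D4h against Dark and the interaction), 3 to 8 (polysome-bound, L4h against Dark), 0 to 1 (polysome-bound against total, Dark) and 0 to 3 (the same, L4h). Polysome-bound against total RNA was the comparison least steady under other settings: limma on log2(RPKM + 1) and on log2(RPKM + 0.1) called 0 genes in Dark and 0 in L4h, and leaving out all libraries numbered 1 gave 0 in Dark and 4 in L4h, where IAA1 and IAA2 were added. limma on either pseudocount called 6 of the 8 polysome-bound falls, without IAA3 and IAA4. The cause was not tested. The replicate block gave 9 falls in total RNA and 9 on polysomes, 1 and 2 genes for polysome-bound against total RNA whether within each kind of RNA or shared by both, and 0 for the interaction; over all genes it moved the polysome-bound light calls from 1124 and 1037 to 4584 and 4481. The lowest group mean was an L4h group in 9 of the 10 genes in RPKM and in CPM. IAA5 and IAA6 in L4h rest on as few as 40 and 47 reads in a library.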
